A study of Mus musculus with 32 samples.

Results

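Mouse embryonic fibroblasts that carried ATP-citrate lyase (ACLY) were compared with fibroblasts that lacked it after 24 h in 1 mM glucose. All cells had a knockout of the mouse Acly gene. KO cells carried only mCherry, a red fluorescent protein, in the same vector, and WT cells human ACLY tagged with mCherry, with no added localization signal. The comparison holds 8 of the 32 libraries of the series, 4 of KO and 4 of WT cells, and all 12053 genes listed with a symbol in the table of that medium. The other libraries are of cells with ACLY that carries a nuclear export sequence (Cyto) or nuclear import sequences (Nuc), and of all 4 cell types in 10 mM glucose. Cells of every group were plated at 500000 per dish in DMEM with 10% CS and antibiotics, per the labels. WT is therefore a knockout line with a tagged human transgene and not an unedited fibroblast. The labels do not give the promoter of the transgene, the number of clones or whether replicates were separate cultures. The p-values below therefore rest on a spread between samples that may be technical.

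ACLY splits citrate that leaves mitochondria into oxaloacetate and acetyl-CoA. The acetyl-CoA feeds cholesterol and fatty acid synthesis and the acetylation of proteins, histones included, and cells without the enzyme can make it from acetate through ACSS2. Sterol genes are switched on by SREBP2, a membrane-bound transcription factor that is held in the endoplasmic reticulum (ER) while sterols are plentiful. The ER also folds and glycosylates secreted proteins, and when unfolded proteins build up there the sensors ATF6, IRE1 and PERK start the unfolded protein response (UPR), which raises chaperones and slows protein synthesis. Shortage of glucose is a textbook trigger of that response.

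The values are log2 CPM (read counts scaled so that libraries can be compared) as the authors deposited them, and the read depth of each library is unknown. The deposited values of a library summed to 93.3% to 96.6% of the per-million total in KO and 102.5% to 109.8% in WT, so shares below are of each library's own sum. A fold change is WT minus KO on that log2 scale, and the number after ± is its standard error from limma (n = 4 in each group). A gene was called when limma's Benjamini-Hochberg adjusted p over all 12053 genes was under 0.05. Libraries are numbered as in the labels and values are listed in the order 1 to 4.

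One library stood apart. WT library 2 lay at -53.39 on the second principal component against -38.73, -36.33 and -38.2 for the other WT libraries. Its difference from the mean of the other WT libraries had an SD of 0.535 over genes, against 0.272 to 0.330 for the other 7 libraries. The difference followed transcript length, with a median of 0.409 in the shortest and -0.467 in the longest of 5 equal groups of genes. Over all WT libraries the median fold change accordingly ran from 0.154 in the shortest to -0.146 in the longest group, and without WT library 2 from 0.058 to -0.0262. Of the 7014 genes called with all libraries, 6455 were called in the same direction without it, and values without it are given where it ended a call or moved a printed count or median by over 1.5 times. Fibroblast markers were all measured (10 of 10), with a summed level of 37090 to 43780 CPM in KO and 59010 to 68050 in WT. The sum is on the linear scale, so the most abundant markers weigh most in it. By gene, 5 markers were higher in WT, 3 lower and 2 not called (median fold change 0.195), against 29.7% higher and 28.5% lower over all genes. Of the markers of other cell types, Krt19 was the only epithelial gene of 6 listed, at 8.48 to 11.7 CPM in KO and 21.1 to 41.4 in WT. Tek was the only endothelial gene of 5, at 1.3 to 1.9 CPM in KO and 0.284 to 0.880 in WT, and Fabp4 the only adipocyte gene, at 2.56 to 3.71 and 3.33 to 5.16. None of 5 skeletal muscle genes was listed, and Cd68, Csf1r and Lyz2 of the leukocyte list summed to 19.1 to 23.4 CPM in KO and 8.33 to 13.6 in WT. The part of such cells in the results was not tested.

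Acly itself followed the labels. Its log2 level was 5.19, 5.43, 5.38 and 5.38 in KO libraries and 10.68, 10.44, 10.59 and 10.56 in WT libraries. Every WT library was above every KO library, and WT held 37.3-fold more transcript (5.22 ± 0.07). KO libraries still had reads assigned to Acly. How reads of the human transgene were assigned to the mouse gene, and whether the KO reads lie outside the edited part, is not stated by the labels.

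Among genes at or above the median level, ER chaperone genes were at one end of the comparison and sterol genes at the other. The 12 highest genes of the naming rule were, after Acly, Sdf2l1 (3.58 ± 0.18), Creld2 (3.17 ± 0.18), Abca1 (2.75 ± 0.15), Manf (2.35 ± 0.14), Hspa5 (2.31 ± 0.13), Gxylt2 (2.3 ± 0.08), Ddit3 (2.09 ± 0.18), Tle1 (2.05 ± 0.05), Ppp1r15a (1.98 ± 0.19), Lama5 (1.94 ± 0.08) and Pmepa1 (1.89 ± 0.11). Of these, Sdf2l1, Creld2, Manf, Hspa5, Ddit3 and Ppp1r15a are known genes of the UPR. Gxylt2 encodes a xylosyltransferase that extends O-glucose on Notch, Tle1 a transcriptional corepressor, Lama5 a laminin chain and Pmepa1 an inhibitor of TGF-beta signalling. The 12 lowest were Nsdhl (-3.23 ± 0.12), Acat2 (-3.07 ± 0.13), Cep85 (-2.82 ± 0.19), Sc5d (-2.62 ± 0.09), Rspo2 (-2.57 ± 0.07), Idi1 (-2.57 ± 0.09), Dhcr7 (-2.53 ± 0.12), Stard4 (-2.43 ± 0.10), Slc1a3 (-2.34 ± 0.09), Mvd (-2.32 ± 0.12), Lrrc17 (-2.21 ± 0.10) and Foxred2 (-2.19 ± 0.06). Of these, Nsdhl, Acat2, Sc5d, Idi1, Dhcr7, Stard4 and Mvd serve cholesterol synthesis or transport. Cep85 encodes a centrosomal protein, Rspo2 a Wnt agonist, Slc1a3 a glutamate transporter and Foxred2 an ER flavoprotein. In all, limma called 7014 genes (58.2% of those tested), 3580 higher in WT (29.7%) and 3434 lower (28.5%). At least 2-fold changes were fewer and mostly lower, 1292 in all (10.7%), with 377 higher (3.13%) and 915 lower (7.59%). WT and KO values did not overlap for 5983 genes (49.6%), 3043 of them higher (25.2%) and 2940 lower (24.4%).

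**Figure D1:**
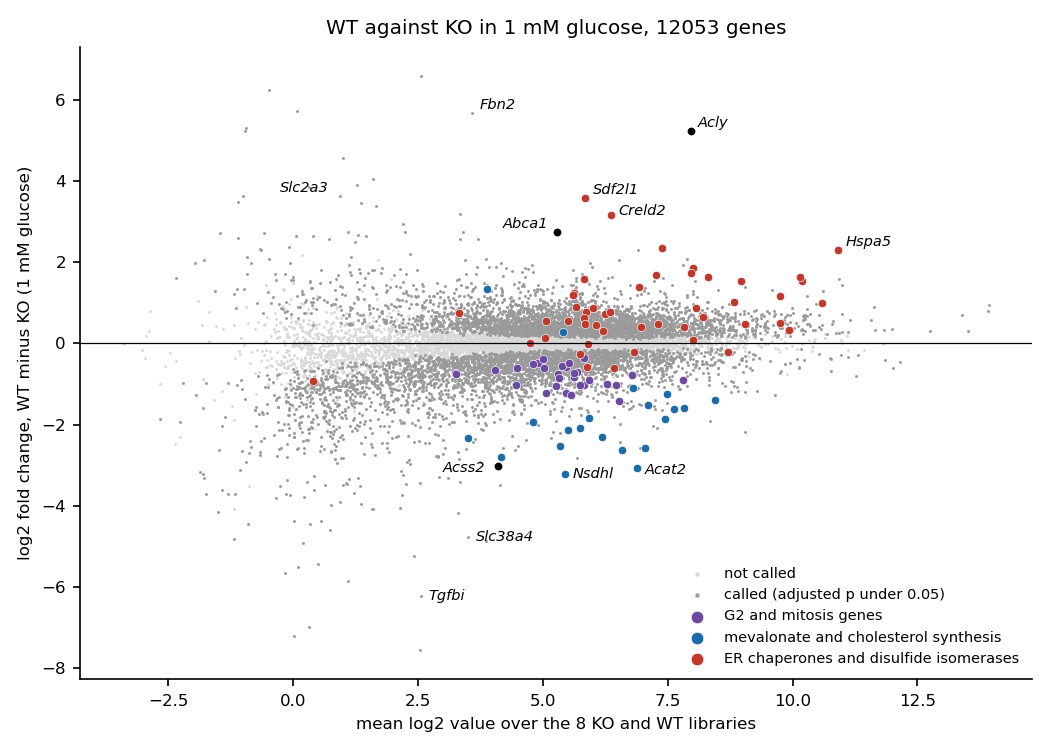
Log2 fold change of WT against KO in 1 mM glucose (y axis) against the mean log2 value over the 8 libraries (x axis), 1 point per gene, with 3 groups of lists in colour and Acly, Acss2 and Abca1 in black. ER chaperones and disulfide isomerases lie mostly above 0, with Sdf2l1 at 3.58, and sterol synthesis genes mostly below, with Nsdhl at -3.23.

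Some genes with low values in one group differed by more. Tgfbi, a secreted target of TGF-beta, was at 5.69, 5.56, 5.71 and 5.67 in KO and -1.65, -0.67, -0.19 and 0.29 in WT (-6.21 ± 0.52). Fbn2, a fibrillin of elastic fibres, was at 1.5, 0.41, 0.83 and 0.23 in KO and 6.61, 5.72, 6.62 and 6.75 in WT (5.68 ± 0.82). The amino acid transporter gene Slc38a4 had -4.77 ± 0.14. These groups did not overlap, and the genes differed in the same direction in 10 mM glucose (-4.9, 4.52 and -4.21). H2-K1 and H2-Q4, class I histocompatibility genes with -4.87 ± 0.26 and -3.28 ± 0.16, are uncertain because reads can be split among near-identical copies. In bulk RNA, fewer cells that express a gene and less of its RNA per cell cannot be told apart, here and for every gene below.

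**Figure D2:**
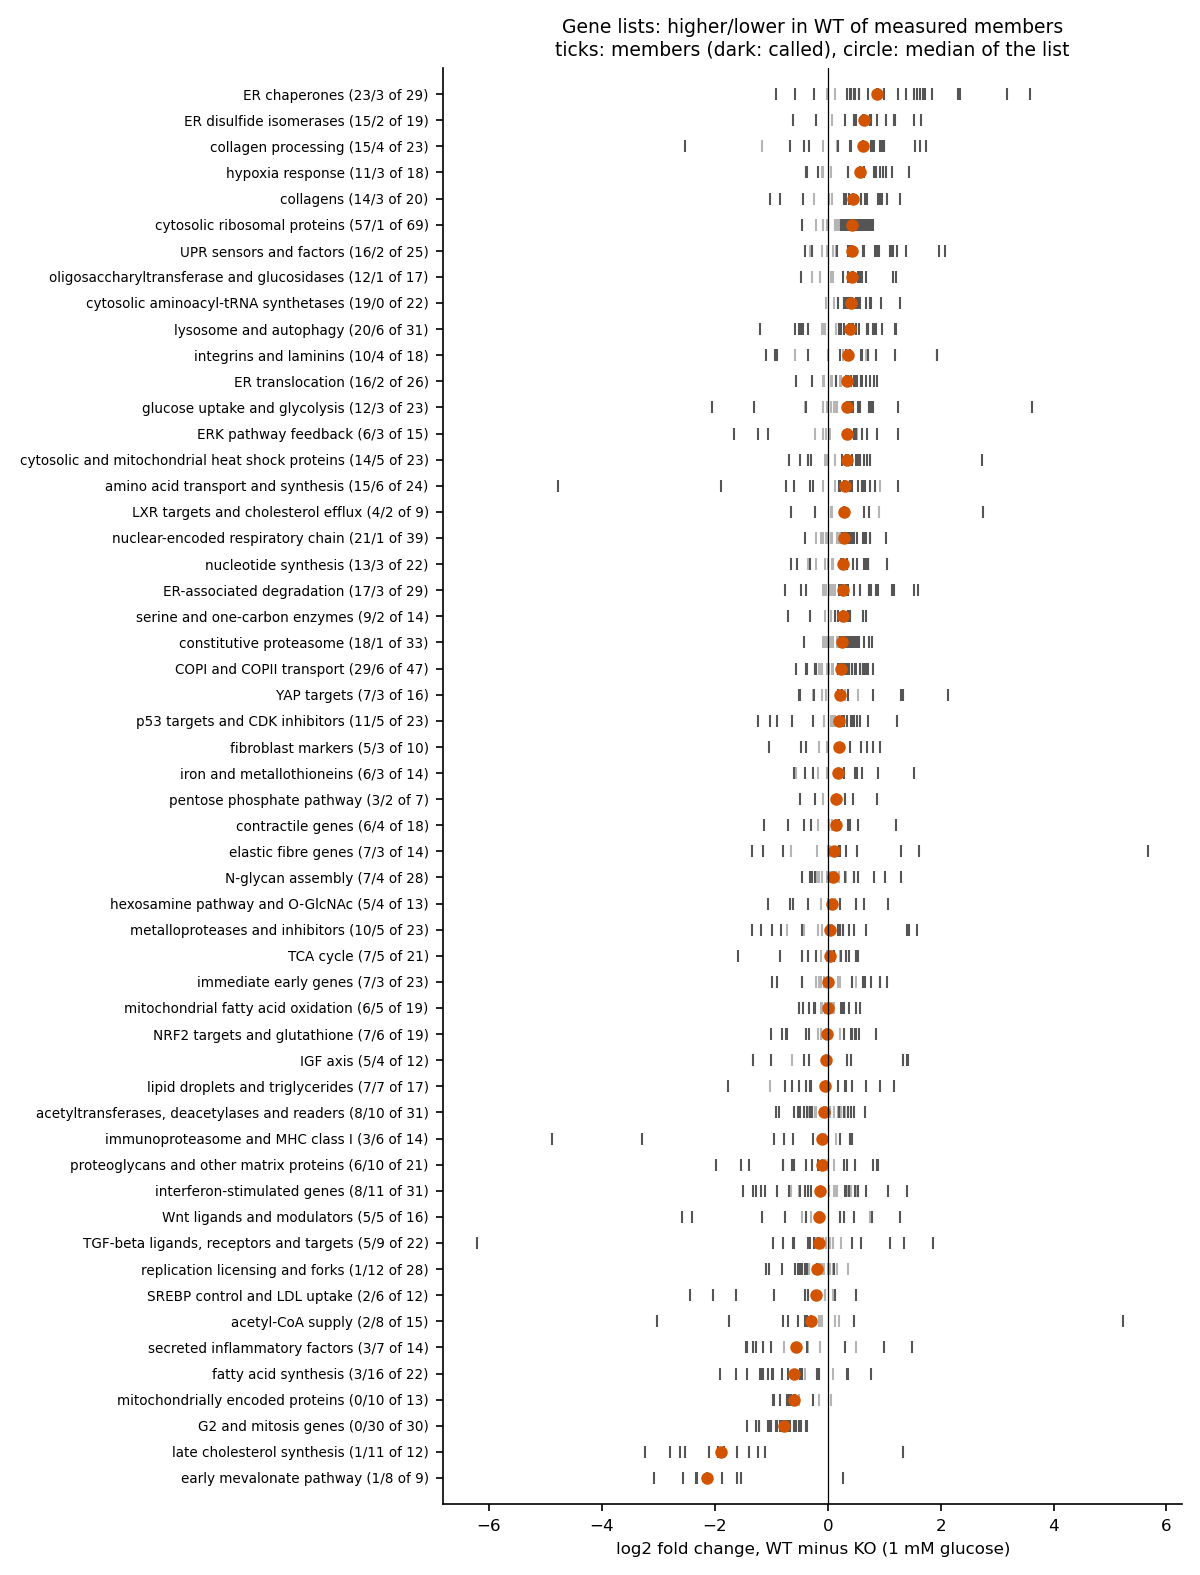
Log2 fold changes of WT against KO in 1 mM glucose (x axis) for the members of each gene list (y axis, ordered by median). Ticks are genes, dark where called, circles are list medians, and the numbers give members higher and lower in WT of those measured. Early mevalonate genes have the lowest median at -2.14 and ER chaperones the highest at 0.87.

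Cholesterol synthesis genes were lower in WT along nearly the whole pathway. Of 9 genes of the early mevalonate pathway, 8 were lower and 1 higher, with a median of -2.14 against -0.00 over all genes. Of 12 genes of late cholesterol synthesis 11 were lower and 1 higher (median -1.89). Together the early genes made up 0.206% ± 0.011 (SD, n = 4) of the summed values in KO and 0.048% ± 0.00346 in WT, and the late genes 0.227% ± 0.00685 and 0.066% ± 0.00507.

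The lower level ran from the first step on. Acat2, a thiolase that condenses acetyl-CoA to start the pathway, stood at 8.37, 8.32, 8.47 and 8.5 in KO and 5.37, 5.32, 5.19 and 5.51 in WT, 8.39-fold lower in WT. Hmgcs1, the HMG-CoA synthase, stood at 8.62, 8.67, 8.54 and 8.67 in KO and 6.98, 7.01, 6.96 and 7.14 in WT (-1.6 ± 0.07). The groups of neither gene overlapped. The kinases and the decarboxylase that follow had -2.14 ± 0.13 (Mvk), -2.34 ± 0.14 (Pmvk) and -2.32 ± 0.12 (Mvd), the isomerase Idi1 -2.57 ± 0.09 and the farnesyl pyrophosphate synthase Fdps -1.87 ± 0.12. Ggps1, which makes geranylgeranyl pyrophosphate for protein prenylation rather than for sterols, was the exception with 0.27 ± 0.10 and overlapping groups. Its call was lost with KO and WT libraries alone and without KO library 1 or 4 or WT library 1, 3 or 4 (limma adjusted p of 0.0575 to 0.0833), which leaves no higher gene in the list.

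From squalene onward most genes were lower as well. Fdft1 and Sqle, which make squalene and its epoxide, had -1.1 ± 0.09 and -1.4 ± 0.07, and the cyclase Lss had -1.83 ± 0.15. Nsdhl, a dehydrogenase of C4 demethylation, stood at 7.09, 7.01, 7.08 and 7.06 in KO and 4.05, 3.57, 3.7 and 4.0 in WT, which is 9.36-fold lower. Lower levels were also seen for Cyp51 (-1.24 ± 0.07), Msmo1 (-1.61 ± 0.09) and Hsd17b7 (-2.09 ± 0.20) of demethylation, the reductase Tm7sf2 (-2.79 ± 0.12), the isomerase Ebp (-1.95 ± 0.12), the desaturase Sc5d (-2.62 ± 0.09) and the final reductase Dhcr7 (-2.53 ± 0.12). The adjusted p of the pathway genes named here was at most 0.0249 (limma), the value of Ggps1.

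The genes that control the pathway did not move as one. Srebf2, which encodes SREBP2, was lower (-0.95 ± 0.09), and Srebf1, which encodes SREBP1, had -0.04 ± 0.09 and was not called (limma adjusted p = 0.691). Insig1, an ER anchor of SREBP that is itself a target of it, was lower by a small amount (-0.36 ± 0.08). Of the proteases that release SREBP, Mbtps2 was lower (-0.40 ± 0.12) and Mbtps1 (0.09 ± 0.06) was not called, except without WT library 2 (0.14, limma adjusted p = 0.0166), with library weights or with the length trend removed. The escort Scap had 0.13 ± 0.05 with overlapping groups and was called with all libraries, but not when any library other than WT library 2 was left out (limma adjusted p of 0.0525 to 0.127). Insig2 (-0.04 ± 0.11) was not called. Stard4, a sterol carrier, stood at 7.69, 7.72, 7.84 and 7.81 in KO and 5.41, 4.97, 5.39 and 5.56 in WT (-2.43 ± 0.10), with no overlap, and the lipoprotein receptor gene Lrp8 had -1.62 ± 0.18. In lysosomes, where cholesterol taken up with lipoproteins is released, Npc1 was higher (0.51 ± 0.06) and Npc2 was not called (0.13 ± 0.08). Of the whole list of 12 genes 6 were lower and 2 higher, Npc1 and Scap.

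Abca1, the exporter of cholesterol and a target of the oxysterol receptor LXR, was higher in every WT library, at 3.99, 4.06, 3.85 and 3.77 in KO and 6.9, 6.0, 6.89 and 6.87 in WT. WT library 2 had the lowest WT value, and the fold change of 2.75 was 2.97 without it. Mylip, an LXR target that encodes a ubiquitin ligase, had 0.65 ± 0.10 and the lipid transfer protein gene Pltp 0.74 ± 0.07. Lower were Abca2 (-0.64 ± 0.11) and Lpcat3 (-0.22 ± 0.07), so that 4 of 9 members were higher and 2 lower, a share of calls close to that over all genes.

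One promoter of the sterol lists held the sterol regulatory element searched for, TCACNCCAC on either strand. The element occurred in RefSeq promoter windows (250 bases before to 50 after the start, GRCm38.p6) of 1.44% of 27025 genes. The site in the sterol lists is that of Hmgcs1, printed with the site in capitals from chr13:119690199-119690237 on the plus strand. The lists of early and late sterol genes had windows for 7 and 9 genes. Of the 122 measured genes with these letters 43 were higher in WT and 42 lower, a near-even split like that over all genes (29.7% and 28.5%).
Hmgcs1: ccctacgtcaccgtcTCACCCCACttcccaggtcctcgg

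Other genes of acetyl-CoA supply and use followed in part. Acss2, which makes acetyl-CoA from acetate, stood at 5.54, 5.58, 5.67 and 5.68 in KO and 2.58, 2.44, 2.46 and 2.87 in WT, 8.17-fold lower in WT with no overlap. Of 15 genes of acetyl-CoA supply 8 were lower and 2 higher, Acly itself being one of the latter. Pdha1 of pyruvate dehydrogenase had -0.53 ± 0.04, its kinase gene Pdk3 -0.79 ± 0.08, and Dld, the shared dehydrogenase subunit, 0.47 ± 0.08. In fatty acid synthesis 16 of 22 genes were lower and 3 higher (median -0.60). Scd1, the main desaturase, was at 9.36, 9.23, 9.37 and 9.24 in KO and 7.66, 6.99, 7.48 and 7.47 in WT (-1.9 ± 0.10). Fads1 (-1.06 ± 0.05) and Fads2 (-1.2 ± 0.06), desaturases of polyunsaturated fatty acids, and the acyl-CoA synthetase Acsl3 (-1.62 ± 0.06) were lower too. The malic enzyme Me1 (0.37 ± 0.06) and Hacd1 (0.77 ± 0.09), a dehydratase of chain elongation, were higher. Genes of lipid droplets were split, with 7 higher and 7 lower of 17. The phosphatidate phosphatases showed both directions, Lpin1 at -1.76 ± 0.15 and Lpin3 at 1.17 ± 0.09. Mitochondrial fatty acid oxidation was split as well (6 higher and 5 lower of 19), as were genes as a whole, with Acadm at -0.50 ± 0.08 and Hadhb at 0.58 ± 0.07.

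Folding genes of the ER stood higher in WT cells. Of 29 ER chaperone genes 23 were higher and 3 lower (median 0.87), and of 19 disulfide isomerase and oxidase genes 15 were higher and 2 lower (median 0.64). ER chaperone transcripts made up 0.663% ± 0.0259 (SD, n = 4) of the summed values in KO and 1.53% ± 0.203 in WT.

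**Figure D3:**
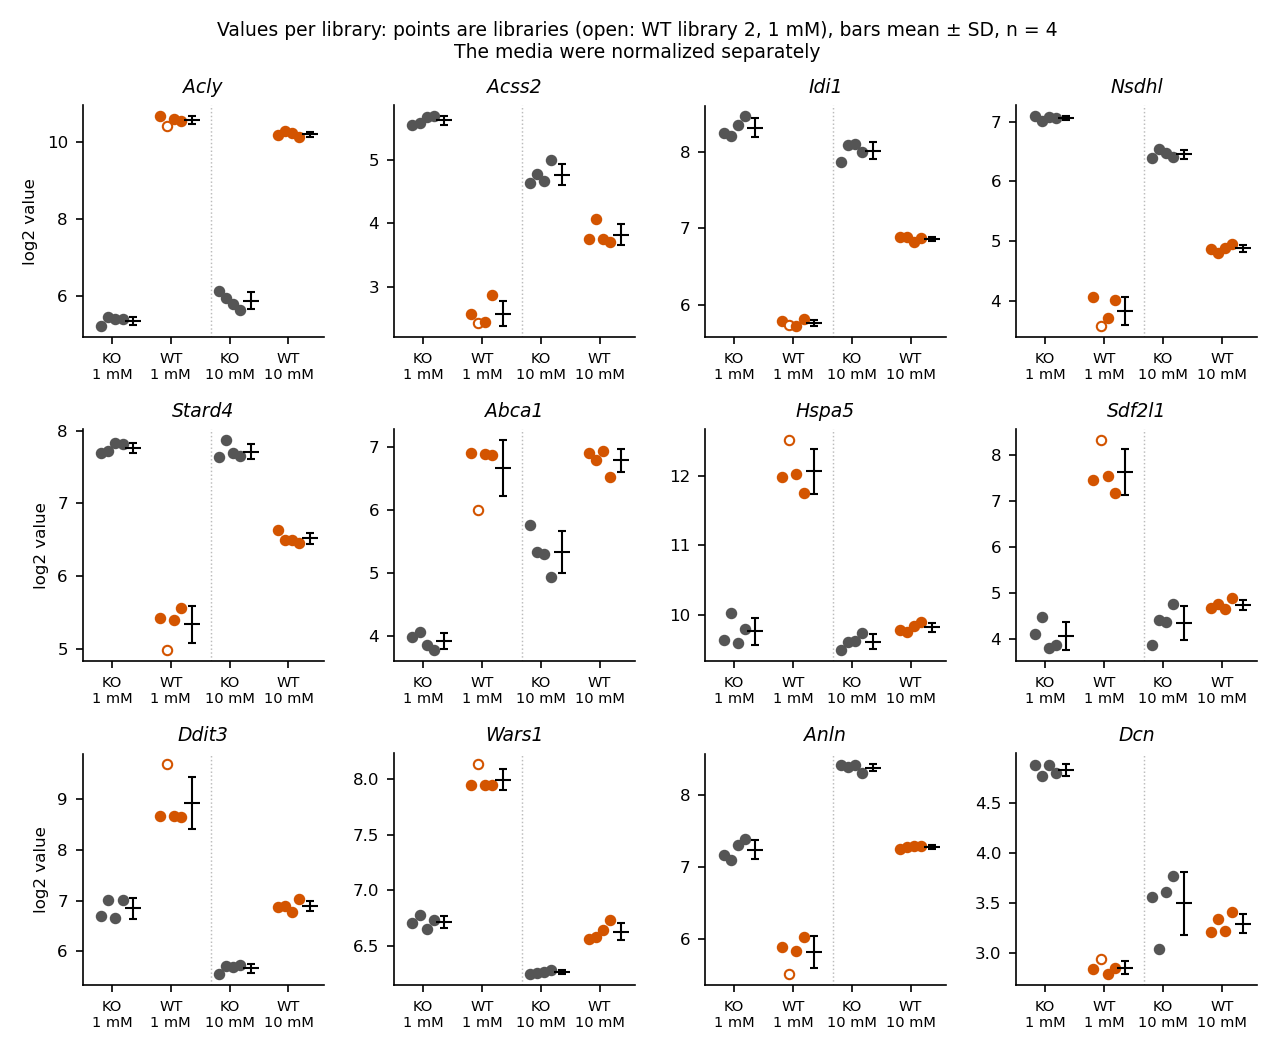
Log2 values per library (y axis) of 12 genes in KO (grey) and WT (orange) cells in 1 mM and 10 mM glucose. Points are libraries, the open one is WT library 2, and bars are the mean and SD of 4 libraries. Hspa5 lies between 11.75 and 12.52 in WT in 1 mM glucose and no higher than 10.03 in KO, and Ddit3 has its highest value, 9.70, in WT library 2.

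Hspa5, the main Hsp70 chaperone of the ER and the protein that keeps the UPR sensors inactive, stood at 9.63, 10.03, 9.6 and 9.79 in KO and 11.98, 12.52, 12.02 and 11.75 in WT, a 4.94-fold difference. Sdf2l1, a partner of Hspa5, was at 4.1, 4.48, 3.79 and 3.86 in KO and 7.47, 8.33, 7.56 and 7.18 in WT, and Creld2, an ER-stress-induced isomerase-like protein, at 4.69, 5.02, 4.62 and 4.78 and 7.82, 8.72, 7.75 and 7.5. For each of these genes WT library 2 was the highest, and all WT libraries were above all KO libraries. Without that library the fold changes of Hspa5, Sdf2l1 and Creld2 were 2.16, 3.35 and 2.91. Hyou1, a nucleotide exchange factor for Hspa5, was not highest in WT library 2, with 9.03, 9.02, 8.98 and 8.67 against 7.11, 7.2, 7.0 and 6.97 in KO.

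Further chaperones were higher too. Manf, an ER-resident factor that binds Hspa5, was at 8.44, 9.16, 8.46 and 8.18 in WT against 6.29, 6.28, 6.09 and 6.2 in KO. Calr, the lectin chaperone calreticulin, had 1.63 ± 0.10, Ppic, a prolyl isomerase, 1.73 ± 0.07, Serpinh1, the collagen chaperone, 0.99 ± 0.05 and Dnajc3, a cochaperone that inhibits PERK, 1.38 ± 0.09. Against the list, Fkbp14 (-0.58 ± 0.06) and Creld1 (-0.92 ± 0.19) were lower, the latter without a call under quantile normalization (limma adjusted p = 0.111). Among disulfide isomerases Pdia6 (1.65 ± 0.12), Pdia4 (1.54 ± 0.10), Pdia5 (1.2 ± 0.08) and Pdia3 (1.17 ± 0.11) were higher, as were the oxidases Ero1a (1.02 ± 0.09) and Qsox1 (0.64 ± 0.05) and the thiol retention protein gene Erp44 (0.88 ± 0.09). Tmx3 (-0.62 ± 0.13) and Txndc5 (-0.22 ± 0.05) were lower. The largest adjusted p among the folding genes named as higher or lower was 0.00223 (limma), that of Txndc5.

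Several of these genes hold an ER stress response element (ERSE), the site through which ATF6 and XBP1 are known to act. The letters searched were CCAAT and CCACG with 9 bases of any kind between them, on either strand, in RefSeq windows of 250 bases before to 50 after the start of transcription (GRCm38.p6). A gene was counted where any of its windows held the letters. The element occurred in 37 of 27025 genes with a window (0.137%). It was in 16 of the 9412 genes of the 1 mM table that had a window (0.17%), and in 6 of 24 ER chaperone genes with a window. Of the 16 genes, 11 were higher in WT and 1 was lower, against 29.7% and 28.5% of all genes. Most of the 16 belong to the ER lists of this report, with 6 ER chaperone, 2 disulfide isomerase and 1 ER-associated degradation gene, and Alg12 of glycan assembly. All of these were higher, so the count of 11 largely repeats those lists. The shorter element ERSE-II, ATTGG and CCACG with 1 base between them, occurred in 12 genes (0.0444%), of which 8 were measured and 6 of those were higher in WT. The UPR element TGACGTGG, a site of XBP1 and ATF6, occurred in 193 genes (0.714%) and 99 measured genes, of which 40 were higher and 17 lower. It was in none of 24 ER chaperone genes with a window and in 2 of 17 such disulfide isomerase genes, 1 of them higher and 1 lower. The amino acid response element TGATGCAAT, a site of ATF4, occurred in 60 genes (0.222%) and 14 measured genes, 9 of the latter higher and 1 lower. The whole Hspa5 window and the surroundings of the elements in other folding genes are shown so that the elements can be seen in place, with the element in capitals. They lie at chr2:34771840-34772139 (Hspa5, plus strand), chr15:88819505-88819553 (Creld2, plus), chr14:118937812-118937860 (Dnajc3, plus), chr12:17266476-17266524 (Pdia6, plus), chr8:84847060-84847108 (Calr, minus), chr10:86705518-86705671 (Hsp90b1, minus), chr11:50325785-50325833 (Canx, minus), chr19:6046517-6046565 (Syvn1, plus), chr16:22857837-22857877 (Dnajb11, plus) and chr8:94386362-94386402 (Herpud1, plus).
Hspa5: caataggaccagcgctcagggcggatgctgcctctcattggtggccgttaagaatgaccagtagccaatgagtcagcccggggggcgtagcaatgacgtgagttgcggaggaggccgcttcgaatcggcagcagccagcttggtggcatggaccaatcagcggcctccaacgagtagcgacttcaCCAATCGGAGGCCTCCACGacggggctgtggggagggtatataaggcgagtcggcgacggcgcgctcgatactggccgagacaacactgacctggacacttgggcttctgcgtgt
Creld2: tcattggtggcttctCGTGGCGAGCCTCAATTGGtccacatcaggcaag
Dnajc3: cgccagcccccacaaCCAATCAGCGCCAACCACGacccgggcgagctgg
Pdia6: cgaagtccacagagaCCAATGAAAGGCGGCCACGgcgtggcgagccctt
Calr: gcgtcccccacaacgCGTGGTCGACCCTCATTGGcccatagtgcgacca
Hsp90b1: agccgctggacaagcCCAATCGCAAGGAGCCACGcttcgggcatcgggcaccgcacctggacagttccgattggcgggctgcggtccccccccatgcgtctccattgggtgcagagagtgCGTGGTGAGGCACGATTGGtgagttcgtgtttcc
Canx: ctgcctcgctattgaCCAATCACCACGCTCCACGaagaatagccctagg
Syvn1: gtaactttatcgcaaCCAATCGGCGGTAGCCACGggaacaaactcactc
Dnajb11: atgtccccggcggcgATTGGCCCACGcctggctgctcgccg
Herpud1: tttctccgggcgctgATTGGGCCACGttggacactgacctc

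In Hspa5 the element starts 65 bases before the start site and reads CCAAT first. In Creld2 and Calr it lies in the opposite orientation, so that the strand shown reads CGTGG first and ATTGG last, and Hsp90b1 has an element in each orientation. Dnajb11 and Herpud1 hold ERSE-II. Fold changes beside these sites were 1.7 ± 0.11 for the cochaperone Dnajb11, 1.52 ± 0.13 for Hsp90b1, the ER member of the Hsp90 family, and 0.33 ± 0.09 for Canx, the membrane-bound lectin calnexin, which was not called under quantile normalization (limma adjusted p = 0.678). The fold changes thus differed between genes with the same element. Sdf2l1 had the highest fold change of the ER chaperone list, and no match to either element was found for it, though only 24 of 29 genes of that list had a window. Whether Sdf2l1 was among those 24 is not given here, so nothing can be read from the missing match. A match is a run of letters and not a measured binding site.

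The UPR sensors and factors were higher in 16 of 25 cases and lower in 2 (median 0.43). Of the sensors, Atf6 was at 6.04, 6.17, 6.0 and 6.05 in KO and 7.02, 6.62, 7.09 and 6.91 in WT (0.84 ± 0.09), its relative Atf6b had 0.64 ± 0.05, and Eif2ak3, which encodes PERK, 0.63 ± 0.07. Ern1, which encodes IRE1, was not called, with -0.09 ± 0.13 (limma adjusted p = 0.556) and overlapping groups. Xbp1, the target of IRE1 splicing, was at 6.25, 6.58, 6.13 and 6.44 in KO and 7.42, 7.8, 7.5 and 7.57 in WT, 2.34-fold higher, while splicing itself is not measured by gene-level values. Creb3l1, an ER-bound factor of secretory cells, had 1.1 ± 0.08, Creb3 had 0.43 ± 0.12, and Creb3l2 (0.14 ± 0.08) was not called, except without WT library 2 (0.23, limma adjusted p = 0.00342), with library weights or with the length trend removed.

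Transcripts of stress factors that are often placed on the PERK arm were higher as well. The activity of PERK was not measured. Ddit3, which encodes CHOP, was at 6.69, 7.02, 6.65 and 7.02 in KO and 8.68, 9.7, 8.67 and 8.65 in WT. WT library 2 lay above the other WT libraries, which were close together, and the fold change of 2.09 was 1.83 without it. Ppp1r15a, the phosphatase subunit that reverses the translation block, was at 4.47, 5.18, 4.74 and 5.43 and 6.41, 7.42, 6.87 and 7.02 (1.98 ± 0.19), and its constitutive relative Ppp1r15b had 0.16 ± 0.07, a call that was lost without KO library 1, 3 or 4 or WT library 3 (limma adjusted p of 0.0688 to 0.148). Atf3 (1.38 ± 0.14), Trib3 (1.15 ± 0.10), Nupr1 (1.12 ± 0.11), Chac1 (0.90 ± 0.13), Cebpb (0.87 ± 0.12) and Sesn2 (0.36 ± 0.07) were higher. Atf4, which is regulated mainly by translation, was higher by 0.39 ± 0.10, though not called under quantile normalization (limma adjusted p = 0.0897), and Atf5 (0.15 ± 0.09) and Cebpg (0.15 ± 0.09) were not called, although Cebpg was without KO library 1 or WT library 4 (limma adjusted p = 0.0471 and 0.0367). Transcripts of the other kinases of eIF2 were not higher, which does not give the activity of any of them. Eif2ak1 had -0.01 ± 0.05 and Eif2ak2 -0.32 ± 0.14, neither called with all libraries. Eif2ak4, the amino acid sensor GCN2, was lower (-0.28 ± 0.08, and -0.18 without WT library 2). Eif2ak2 was called as lower without KO library 4 or WT library 1, 3 or 4 (limma adjusted p of 0.0196 to 0.0497), and had -0.13 without WT library 2.

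The rest of the secretory pathway was higher by less. Of 29 genes of ER-associated degradation (ERAD) 17 were higher and 3 lower (median 0.27), led by Syvn1, a ubiquitin ligase, at 5.48, 5.5, 5.5 and 5.56 in KO and 6.93, 7.13, 7.23 and 7.17 in WT. Herpud1 had 1.54 ± 0.09, Sel1l, the partner of Syvn1, 1.18 ± 0.12, the mannosidase-like Edem1 1.14 ± 0.07 and the lectin Os9 0.88 ± 0.06. Ngly1, which removes N-glycans in the cytosol, was lower (-0.75 ± 0.08). Foxred2, the ER flavoprotein among the 12 lowest genes (-2.19), was not put in that list and is not in its counts. Of 17 genes of the oligosaccharyltransferase and the glucosidases 12 were higher and 1 lower (median 0.43), with Rpn1 at 1.22 ± 0.10, Mogs at 1.16 ± 0.08 and Stt3b at 0.67 ± 0.06, against Stt3a, the other catalytic subunit, at -0.47 ± 0.16. The call of Stt3a, the only lower one of the list, was lost without WT library 2 (-0.26, limma adjusted p = 0.0569) and without KO library 2 or 3 (0.0537 and 0.059). Genes that assemble the glycan before its transfer were less uniform. Of 28, 7 were higher and 4 lower (median 0.09, and 0.04 without WT library 2 with 8 higher and 5 lower), with the mannosyltransferases Alg3 (1.3 ± 0.09) and Alg12 (0.82 ± 0.09) highest among the named and Alg10b (-0.45 ± 0.08) lowest. In the hexosamine pathway, which makes UDP-GlcNAc from glucose, 5 of 13 were higher and 4 lower. Gnpnat1, an acetyl-CoA-dependent enzyme of that pathway, had 1.07 ± 0.13, Gfpt1, its first enzyme, 0.50 ± 0.10, and Ogt, which attaches O-GlcNAc, -1.06 ± 0.11.

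Protein entry into the ER and vesicle traffic showed the same direction. Of 26 translocation genes 16 were higher and 2 lower (1 lower without KO library 1, 2 or 4), with the pore subunit Sec61a1 at 0.59 ± 0.05 and the receptor subunits Srprb at 0.81 ± 0.08 and Srpra at -0.57 ± 0.05. Srp54a and Srp54b are near-identical copies and their split (0.49 and 0.87) is uncertain. Of 47 genes of COPI and COPII coats and cargo receptors 29 were higher and 6 lower. The counts were 22 and 11 under quantile normalization, 24 and 2 with KO and WT libraries alone and 27 and 3 without KO library 3. Sec23b of the COPII coat had 0.81 ± 0.06 and Tmed10, a cargo receptor, 0.63 ± 0.05, whereas the COPI subunits Arcn1 (-0.56 ± 0.05) and Copa (-0.39 ± 0.05) were lower.

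Genes of amino acid use were mostly higher in WT, among them targets of ATF4. Cytosolic tRNA synthetases were higher in 19 of 22 cases and lower in none (median 0.41, and 0.32 without WT library 2 with 19 higher). Wars1, for tryptophan, was at 6.71, 6.78, 6.65 and 6.73 in KO and 7.95, 8.13, 7.95 and 7.94 in WT (1.28 ± 0.06), and the groups did not overlap. Aars1 (0.75 ± 0.05), Yars1 (0.94 ± 0.09) and Vars1 (0.75 ± 0.06) were higher too. Of 24 genes of amino acid transport and synthesis 15 were higher and 6 lower. The largest change of that list was a lower one, that of the transporter gene Slc38a4 (-4.77). Got1, the cytosolic aspartate transaminase, was at 6.34, 6.6, 6.39 and 6.63 and 7.57, 8.05, 7.67 and 7.64, Aldh18a1, of proline synthesis, had 0.75 ± 0.04 and the leucine transporter Slc7a5 0.63 ± 0.05. Of 14 serine and one-carbon genes 9 were higher and 2 lower, but 5 and 1 both under quantile normalization and with KO and WT libraries alone, and 1 was lower without KO library 3 or 4 or WT library 3. Shmt2 had 0.68 ± 0.07 and Mthfd2 0.62 ± 0.08, both mitochondrial, and Mtr, the methionine synthase, -0.70 ± 0.11. Nucleotide synthesis had 13 of 22 higher and 3 lower (median 0.28). Impdh1 (1.06 ± 0.07), Ctps1 (0.72 ± 0.06), Gart (0.71 ± 0.07) and Ppat (0.71 ± 0.07), enzymes of purine and CTP synthesis, were higher, and Prps2 (-0.64 ± 0.09) and Rrm1 (-0.54 ± 0.09), a subunit of ribonucleotide reductase, were lower.

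Glucose uptake genes were higher, and an inhibitor of uptake was lower. Slc2a3, a high-affinity glucose transporter, was at -0.78, -0.85, -0.97 and -0.87 in KO and 2.75, 2.57, 2.74 and 2.95 in WT, and the housekeeping transporter gene Slc2a1 had 0.74 ± 0.06. Txnip, which restrains glucose uptake and is induced by glucose, was at 4.5, 3.6, 3.96 and 3.81 in KO and 2.12, 1.55, 2.44 and 1.57 in WT, 4.13-fold lower. Hk2, a hexokinase, was 2.36-fold higher (1.24 ± 0.08). Pgam1 had 0.81 ± 0.06, a value that is uncertain because of its pseudogenes, and Pfkfb4, a regulator of glycolytic rate, was lower (-1.31 ± 0.15). Of 23 genes of uptake and glycolysis 12 were higher and 3 lower (median 0.34). Taldo1 (0.88 ± 0.08) and G6pdx (-0.50 ± 0.09) of the pentose phosphate pathway differed in direction. In the TCA cycle list 7 of 21 were higher and 5 lower. Idh1, the cytosolic isocitrate dehydrogenase that makes NADPH, was at 7.55, 7.51, 7.65 and 7.52 in KO and 6.13, 5.78, 5.91 and 6.03 in WT (-1.6 ± 0.08), Pcx, pyruvate carboxylase, had -0.85 ± 0.10, and the citrate synthase gene Cs 0.51 ± 0.04.

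Of 18 hypoxia genes 11 were higher and 3 lower (median 0.57), with 1 lower without KO library 4. The lysyl hydroxylase gene Plod2 had 0.98 ± 0.08 and the prolyl hydroxylase gene P4ha2 0.82 ± 0.07, while Kdm3a, a histone demethylase (-0.38 ± 0.08), and Pdk1, a kinase that inhibits pyruvate dehydrogenase (-0.37 ± 0.12), were lower. The call of Pdk1 was lost without KO library 2 or 4 (limma adjusted p = 0.0657 and 0.0539).

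Respiratory genes differed by genome. Of 13 mitochondrially encoded proteins 10 were lower in WT and none was higher (median -0.60), and they made up 1.86% ± 0.124 (SD, n = 4) of the summed values in KO and 1.18% ± 0.0605 in WT. The gene mt-Nd2 was at 9.69, 9.53, 9.43 and 9.47 in KO and 8.66, 8.44, 8.66 and 8.59 in WT, without overlap. Of 39 nuclear respiratory genes 21 were higher and 1 lower (median 0.29), but without WT library 2 the counts were 19 and 7 and the median 0.18. Cycs, cytochrome c, had 1.04 ± 0.09 and Atp5f1b, the catalytic subunit of ATP synthase, 0.75 ± 0.08. With each library's trend on transcript length removed, 20 and 7 of these genes were higher and lower.

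Proliferation genes were lower in WT. All 30 genes of the G2 phase and mitosis were lower (median -0.77), and for 29 of them the groups did not overlap, against 24.4% of all genes in that direction. Their share of the summed values was 0.222% ± 0.0178 (SD, n = 4) in KO and 0.109% ± 0.00687 in WT. Anln, a scaffold of the cytokinetic ring, was at 7.17, 7.1, 7.31 and 7.39 in KO and 5.89, 5.51, 5.84 and 6.03 in WT. The kinetochore motor Cenpe had -1.22 ± 0.11, the spindle motor Kif20a -1.0 ± 0.10 and the spindle assembly factor Tpx2 -0.79 ± 0.08. Replication genes were lower in 12 of 28 cases and higher in 1 (median -0.19, and -0.27 without WT library 2, with 16 lower). Pola1, of DNA polymerase alpha, had -1.09 ± 0.09, Dnmt1, which copies DNA methylation, -1.05 ± 0.08, and Mcm2, a helicase subunit, 0.12 ± 0.05 with overlapping groups. Mcm2 was the 1 higher call, and it was lost with KO and WT libraries alone and without KO library 1, 2 or 3 or WT library 1, 3 or 4 (limma adjusted p of 0.0515 to 0.139). Ccnd1, cyclin D1, was at 8.0, 7.84, 8.09 and 8.09 in KO and 7.22, 6.95, 7.12 and 7.1 in WT. Cdkn1a, which encodes the CDK inhibitor p21, was at 6.76, 6.83, 6.81 and 6.83 and 8.0, 8.09, 8.03 and 8.03, 2.35-fold higher with little spread inside each group. Members of the p53 and CDK inhibitor list went both ways (11 higher and 5 lower of 23), with Cdkn2c at -1.24 ± 0.11 and Sesn1 at -1.01 ± 0.07.

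Signalling genes showed no common direction. Myc was higher in WT (1.05 ± 0.14), at 6.39, 6.97, 6.7 and 7.14 in KO and 7.48, 7.97, 7.89 and 8.05 in WT, as was Klf4 (0.93 ± 0.09), while Klf2 (-0.98 ± 0.13) was lower. Of the immediate early list 7 of 23 were higher and 3 lower. Among feedback genes of ERK signalling Spry1 had 1.25 ± 0.12 and Dusp4 0.70 ± 0.11. Dusp10, which was put in the same list, had -1.66 ± 0.11. Skil (1.86 ± 0.16), a repressor of SMAD signalling, and the ligand gene Tgfb1 (1.1 ± 0.09) of the TGF-beta list were higher, although 9 of its 22 members were lower and 5 higher (3 higher without WT library 3 or 4, and with KO and WT libraries alone, where 6 were lower). Of the IGF list 5 of 12 were higher and 4 lower, with Igf2r, a clearance receptor, at 1.4 ± 0.14, Igfbp7 at 1.43 ± 0.08 and the adaptor gene Irs1 at -1.33 ± 0.11. Of YAP and TEAD targets 7 of 16 were higher and 3 lower (1 lower without KO library 1 or 3, and none with KO and WT libraries alone), led by F3, tissue factor (1.3 ± 0.07), and Ankrd1 (2.13 ± 0.28). Ankrd1 had low values in KO, -1.15 in library 2 and -2.36 to -2.16 in the others. In the Wnt list Sfrp1, a secreted inhibitor, was at 5.6, 5.44, 5.5 and 5.44 in KO and 3.07, 2.61, 3.03 and 2.93 in WT. Cxcl12, a chemokine, had -1.28 ± 0.09, and C3, a complement component, was at 7.35, 7.37, 7.42 and 7.17 and 5.87, 5.65, 5.98 and 5.99 (-1.45 ± 0.11). Both belong to secreted inflammatory factors, of which 7 of 14 were lower and 3 higher, Tnfaip3, an inhibitor of NF-kB, being one of the latter (1.5 ± 0.18). Of 31 interferon-stimulated genes 11 were lower and 8 higher (median -0.13). Without WT library 2, 14 were lower and 7 higher (median -0.24), and under quantile normalization 9 were lower and 12 higher. Irf1 had -1.18 ± 0.08 and Usp18 1.4 ± 0.21.

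Collagen genes and their processing enzymes were higher. Of 20 collagen genes 14 were higher and 3 lower (median 0.44), and together they made up 3.25% ± 0.229 (SD, n = 4) of the summed values in KO and 4.93% ± 0.235 in WT. Under quantile normalization 9 and 4 were higher and lower (median 0.22). Col1a1 and Col1a2, the chains of type I collagen, had 0.93 ± 0.08 and 0.70 ± 0.07, and Col5a1, a regulator of fibril width, 1.28 ± 0.06. Under quantile normalization Col1a1 came to 0.00 and Col1a2 was not called (limma adjusted p = 0.0642). That setting gives every library the same value at a given rank, so it can show little difference for genes at the top ranks of all libraries. Col1a1 was the top gene of KO library 1 and WT library 2. With 1 library left out Col1a1 had 0.90 to 0.98. Of 23 processing genes 15 were higher and 4 lower. Plod1, a lysyl hydroxylase, was at 6.46, 6.33, 6.47 and 6.5 in KO and 7.94, 8.05, 8.03 and 7.94 in WT, Adamts2, which cleaves procollagen ends, had 1.63 ± 0.08, and the prolyl hydroxylase P4ha1 0.92 ± 0.06. Pcolce2, an enhancer of procollagen cleavage, was lower (-2.53 ± 0.16). Mmp2, a gelatinase, was at 10.29, 10.15, 10.15 and 9.98 and 11.73, 11.77, 11.74 and 11.65 (1.58 ± 0.06), Mmp11 had 1.45 ± 0.05, and the aggrecanase genes Adamts1 and Adamts9 -1.18 ± 0.11 and -1.34 ± 0.13. Integrin and laminin genes were higher in 10 of 18 cases and lower in 4 (2 without KO library 3), with the collagen receptor Itga11 at 1.94 ± 0.12 and Lama4 at -0.93 ± 0.08.

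Of 21 proteoglycans and other matrix proteins 10 were lower and 6 higher. Dcn, which encodes decorin, was at 4.88, 4.76, 4.87 and 4.8 in KO and 2.84, 2.94, 2.79 and 2.86 in WT. Prelp had -1.53 ± 0.14, the basement membrane gene Nid2 -1.4 ± 0.10, and Sparc, a collagen-binding glycoprotein, 0.89 ± 0.06. Elastic fibre genes had 7 of 14 higher and 3 lower, and 4 and 3 under quantile normalization. Fbn1, the main fibrillin, was at 6.74, 6.64, 6.68 and 6.32 in KO and 8.47, 7.51, 8.49 and 8.35 in WT, and Eln, elastin, at 3.04, 2.7, 2.87 and 2.39 and 1.61, 1.67, 1.38 and 0.96 (-1.34 ± 0.25). In the contractile list 6 of 18 were higher and 4 lower, and 10 and 4 without WT library 2, with Tagln, an actin-binding protein, at -1.13 ± 0.15 and Actg2 at 1.21 ± 0.15. Of fibroblast markers Vim (-0.47 ± 0.09) and Prrx1 (-1.04 ± 0.11), a transcription factor of connective tissue, were lower, and the collagen chains were higher.

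Genes of protein turnover and translation were mostly higher. Proteasome genes were higher in 18 of 33 cases and lower in 1 (16 and 2 without WT library 2), with Psmd8 at 0.78 ± 0.08. Lysosome and autophagy genes had 20 of 31 higher and 6 lower, with Hexa at 0.96 ± 0.07, Gpnmb at 0.83 ± 0.05 and Ctsk, cathepsin K, at -1.19 ± 0.07. Of cytosolic and mitochondrial heat shock genes 14 of 23 were higher and 5 lower. Hspb1, a small heat shock protein, was at 2.31, 1.74, 1.62 and 2.5 in KO and 4.87, 5.14, 4.6 and 4.47 in WT. Sqstm1, the autophagy receptor p62 and a target of NRF2, had 0.86 ± 0.08, and Gstm1, a glutathione transferase, -1.01 ± 0.08. Keap1, the inhibitor of NRF2, was lower (-0.71 ± 0.07), and 7 of 19 NRF2 targets and regulators were higher and 6 lower. The iron exporter gene Slc40a1 had 1.53 ± 0.09 and Mt2, a metallothionein, 0.90 ± 0.14. Of 69 ribosomal protein genes 57 were higher and 1 lower (median 0.44), with 56 and 4 and a median of 0.31 without WT library 2, and 37 and 4 under quantile normalization. That library held 7.21% of its summed values in these short transcripts, against at least 4.78% in the other WT libraries and at most 4.67% in KO. Genes of acetyltransferases, deacetylases and acetyl-lysine readers, which use or remove acetyl groups, had 8 of 31 higher and 10 lower (median -0.06, and 0.01 without WT library 2), with Kat2a at -0.31 ± 0.05, Hdac6 at -0.92 ± 0.12 and Sirt3 at 0.66 ± 0.13.

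The same pair of cell lines in 10 mM glucose, in other libraries, gives the fold changes in another medium. There limma called 5218 of 12791 genes (40.8%), with 2631 above KO (20.6%) and 2587 below (20.2%). The labels give each medium its own batch number, and its table was normalized separately, so medium and batch cannot be told apart. Of 11931 genes in both tables, 6952 were called in 1 mM and 5053 in 10 mM glucose, and 3358 were called in the same direction in both, which is 48.3% of the former and 66.5% of the latter. Another 319 were called in opposite directions. The difference between the fold changes, tested in one limma fit, was called for 3122 genes (26.2%), 1608 with a higher value in 1 mM (13.5%) and 1514 with a lower one (12.7%).

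The 4 highest differences among genes at or above the median level were of ER folding genes. Sdf2l1 was higher in WT by 3.58 in 1 mM and by 0.39 in 10 mM glucose, a difference of 3.19 ± 0.25. In 10 mM its values were 3.85, 4.42, 4.36 and 4.77 in KO and 4.68, 4.76, 4.65 and 4.89 in WT, and the groups overlapped there. Creld2 (0.38 in 10 mM, difference 2.79 ± 0.22), Hspa5 (0.20, 2.1 ± 0.16) and Hyou1 (-0.12, 1.98 ± 0.11) were the others. Manf (1.96 ± 0.20), Dnajc3 (1.53 ± 0.11), Herpud1 (1.25 ± 0.11), Syvn1 (1.17 ± 0.10), Xbp1 (1.07 ± 0.11) and Atf6 (0.98 ± 0.13) differed in the same direction. Of 29 ER chaperone genes the difference was called higher in 1 mM for 17 and lower for 3, and of 25 UPR genes for 10 and 1. Ppic had 1.73 in 1 mM and 1.71 in 10 mM glucose, and Ero1a 1.02 and 1.03. Ddit3 was higher in both media (1.23 in 10 mM, difference 0.85 ± 0.21).

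**Figure D4:**
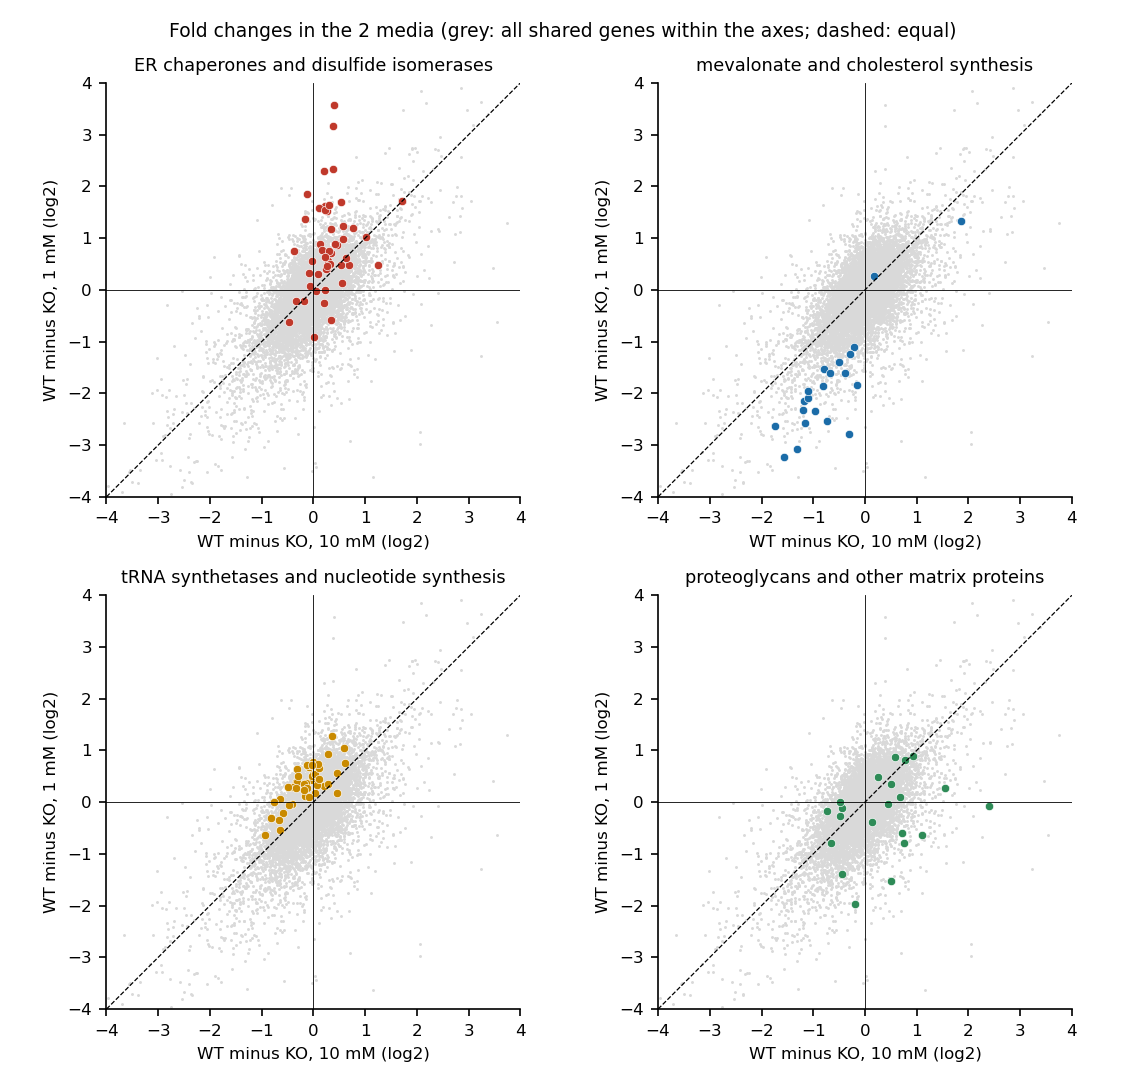
Log2 fold changes of WT against KO in 1 mM glucose (y axis) and 10 mM glucose (x axis), 1 point per gene, with 4 groups of lists in colour. Several ER folding genes lie near the y axis, with Sdf2l1 at 3.58 against 0.39, and most sterol genes lie below the dashed line of equal change.

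Sterol genes were lower in both media, 8 of 9 early and 8 of 12 late ones in 10 mM glucose, and by more in 1 mM. The difference was called lower in 1 mM for 8 of 9 early and 11 of 12 late genes and higher for none. List medians were -2.14 and -1.89 in 1 mM and -0.96 and -0.58 in 10 mM glucose. Tm7sf2 had -2.79 in 1 mM and -0.30 in 10 mM, with a difference of -2.49 ± 0.20, and Acss2 -3.03 and -0.95 (-2.09 ± 0.20). Insig1 changed sign, at -0.36 in 1 mM and 0.92 in 10 mM glucose (-1.28 ± 0.12). Abca1 was higher in both, with a difference of 1.29 ± 0.24.

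Growth genes also differed between media. The tRNA synthetase list had 19 higher and no lower members in 1 mM, and 6 higher and 5 lower in 10 mM glucose, with a called difference for 15 of 22. Nucleotide synthesis had a called difference for 15 of 22 genes, all toward 1 mM, among them Ctps1 (0.81 ± 0.09). Replication genes were lower in 22 of 28 cases in 10 mM, and Cdc6, an origin licensing factor, had -1.38 there and -0.13 in 1 mM (1.25 ± 0.14). Myc had 1.05 in 1 mM and -0.23 in 10 mM (1.28 ± 0.16), and the ERK feedback phosphatase gene Dusp4 0.70 and -0.70 (1.39 ± 0.15). Txnip had -2.04 in 1 mM and 0.30 in 10 mM (-2.34 ± 0.26). G2 and mitosis genes were lower in both media, in 30 and 27 of 30 cases.

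Matrix and secreted proteins were at the other end. The 4 lowest differences of the rule were Clu, an extracellular chaperone (-0.26 in 1 mM and 2.08 in 10 mM, difference -2.34 ± 0.16), Igfbp5, an IGF-binding protein (-1.0 and 1.09, -2.09 ± 0.25), Prelp (-1.53 and 0.51, -2.04 ± 0.16) and Slit3, a guidance ligand (-1.47 and 0.46, -1.92 ± 0.24). Of 21 proteoglycans and other matrix proteins the difference was called lower in 1 mM for 11 and higher for 2. Dcn had -1.97 and -0.20 (-1.77 ± 0.16), and Postn, which encodes periostin, 0.28 and 1.54 (-1.26 ± 0.09). Collagen medians were alike, at 0.44 and 0.55, though the difference was called lower in 1 mM for 6 of 20 collagen genes and higher for 2.

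Cells with ACLY that carries a localization signal were compared with the same 4 KO libraries, so their values share controls with WT and are given side by side only. In 1 mM glucose Cyto against KO called 7802 genes (64.7%) and Nuc against KO 7232 (60%). Hspa5 had 2.31 in WT, 3.34 in Cyto and 3.04 in Nuc, and Sdf2l1 3.58, 4.77 and 4.65. The early mevalonate medians were -2.14, -1.08 and -1.72 in WT, Cyto and Nuc. Fbn2 had 5.68, -1.15 and -2.48, and C3 -1.45, 1.49 and -4.01. Collagens had medians of 0.44, -0.33 and 0.29. Acly transcript differed from KO by 5.22, 5.16 and 3.62.

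**Figure D5:**
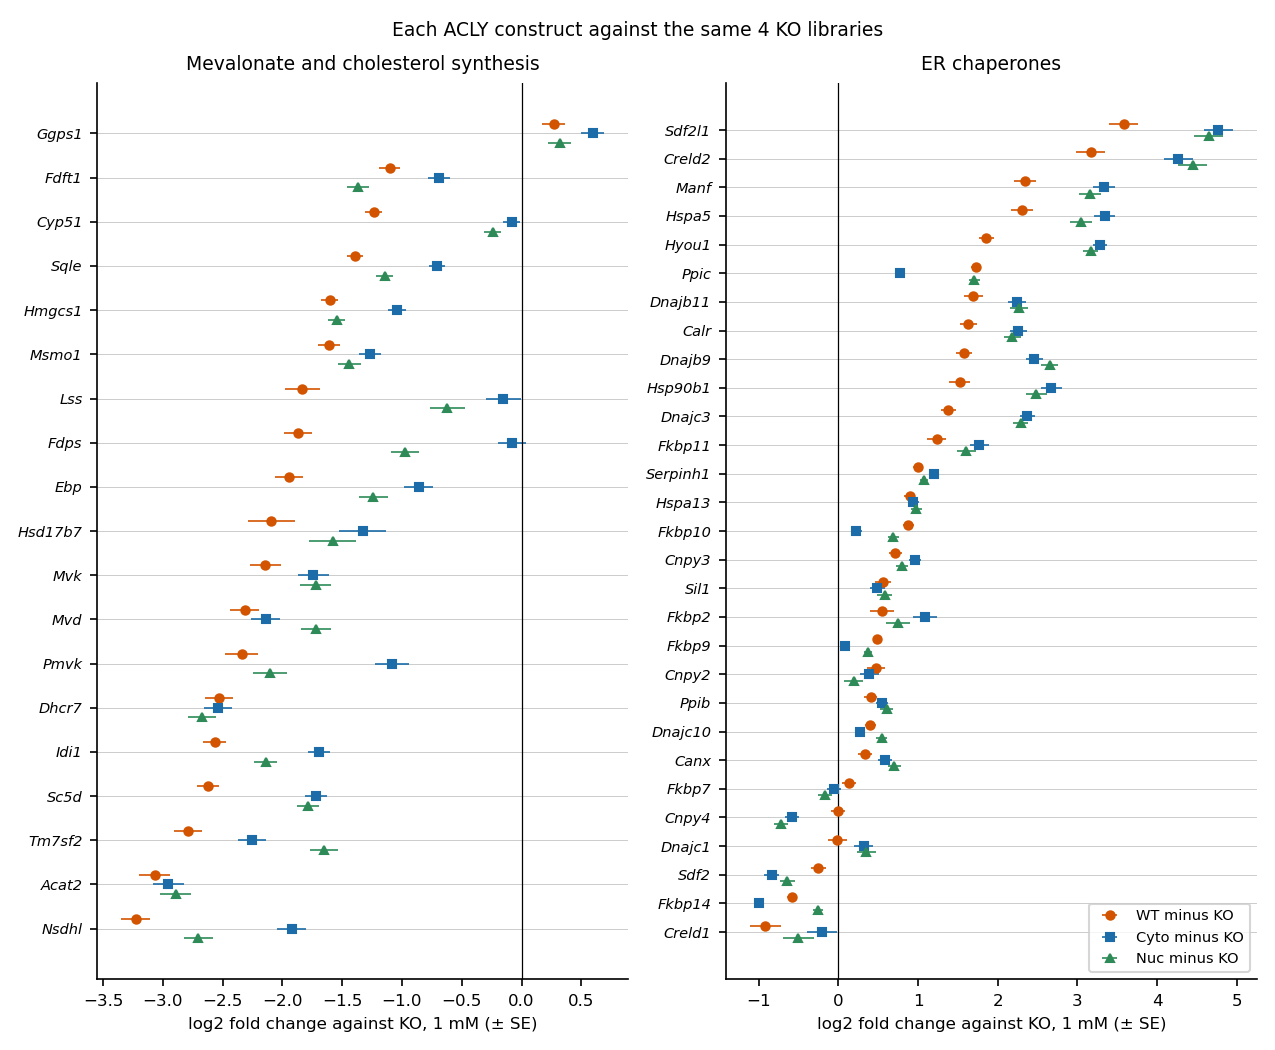
Log2 fold changes against KO in 1 mM glucose (x axis, with limma's standard error) of sterol synthesis genes named in the text (left) and ER chaperones (right) for WT, Cyto and Nuc cells. Hspa5 is at 2.31 in WT, 3.34 in Cyto and 3.04 in Nuc, and Nsdhl is at -3.23, -1.92 and -2.7.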

How the data were processed

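Gene-level RNA abundance was measured by RNA sequencing in 16 libraries of 1 mM and 16 of 10 mM glucose. Per the submitters' processing notes, kallisto, edgeR and limma were used with GRCm39. Versions, filters and read depth are not stated by the labels. The authors deposited log2 values per gene on a per-million scale, with a lowest value of -3.592 in the 1 mM table, and 1 entry without a symbol was left out of each table. Libraries were grouped by the labels. limma 3.58.1 in R 4.3.3 was fitted to the deposited log2 values of the 16 libraries in 1 mM glucose (group means, intensity trend in the prior variance) with Benjamini-Hochberg adjustment over 12053 genes. The 10 mM table (15 libraries, without the third Cyto library that the submitters excluded) was fitted alike, and the difference between media on 11931 shared genes. The test was checked on simulated data. Replicate numbers did not pair the libraries (correlations of -0.115 to 0.0794). The comparison and the gene lists were chosen with earlier results of these data known, and lists are described without a test. Named genes are Acly, the 12 highest and 12 lowest called genes at or above the median level whose groups do not overlap, up to 4 members of each list (8 for ER lists) with the smallest adjusted p, up to 2 called members with the largest change against each list, and for the difference between media the 4 highest, the 4 lowest and up to 2 per list. SREBP and UPR factors are given whether or not they were called. Hsp90b1, Canx and Dnajb11 were named for their promoter letters after their values were seen. Promoter windows are from RefSeq (GRCm38.p6, 9412 of 12053 genes matched by symbol). A list of ER-retained proteins by their last residues was not made, since protein sequences were not used here. Alternatives were other scalings, an added offset, a filter on low values, library weights, a replicate block, removal of the length trend, KO and WT libraries alone and leaving out each library. A few genes of the lists are not reported here by name, but count in the lists.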

Additional observations from a re-analysis of the deposited data

Results flagged for a closer look

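In a group of 4 libraries, a library was singled out where its gap to the next one exceeded Dixon's 95% critical value, which chance does in about 1 of 20 groups. Among the 480 groups of KO or WT values of the genes named above, 45 had such a library (9.38%), and in 29 of them it was WT library 2, the library that stood apart on the second principal component. In WT library 2 the log2 values that lay below those of the other WT libraries were Abca1 (6.0), Abca2 (4.95), Creb3l1 (4.56), Eif2ak2 (5.46), Fads1 (8.14), Fbn1 (7.51), Fbn2 (5.72), Ggps1 (5.27), Igf2r (9.12), Igfbp5 (4.34), Itga11 (5.3), Kdm3a (5.79), Ogt (5.59), Pmepa1 (6.66), Prrx1 (7.63) and Sc5d (4.99). Those that lay above were Aars1 (10.02), Cebpb (8.29), Ddit3 (9.7), Igfbp7 (8.46), Impdh1 (6.73), Mmp11 (7.61), Mthfd2 (8.18), Npc2 (9.25), Pltp (8.81), Psmd8 (7.03), Shmt2 (9.25), Sqstm1 (11.05) and Wars1 (8.13). The part of that library in the result is given by the values without it in the report.

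Single values of other libraries stood out as follows. Cep85 (7.32) lay above the other KO libraries in KO library 1. Insig1 (5.72) lay below the other KO libraries in KO library 1. Ankrd1 (-1.15) lay above the other KO libraries in KO library 2. Cebpb (6.9), Dhcr7 (6.45) and Vim (12.3) lay below the other KO libraries in KO library 2. Cenpe (6.27) lay above the other KO libraries in KO library 3. Mt2 (5.48) and Shmt2 (8.52) lay above the other KO libraries in KO library 4. Creb3l1 (3.52) and Mylip (4.19) lay below the other KO libraries in KO library 4. Pcolce2 (3.4) lay above the other WT libraries in WT library 1. Acadm (5.98) lay below the other WT libraries in WT library 3. Lss (5.48) lay above the other WT libraries in WT library 4. Edem1 (7.91) and Hyou1 (8.67) lay below the other WT libraries in WT library 4.

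The fold change of WT against KO differed between 1 mM and 10 mM glucose, by limma's test of the difference itself, for genes higher in 1 mM: Abca1 (1.29), Atf6 (0.98), Cdc6 (1.25), Creld2 (2.79), Ctps1 (0.81), Ddit3 (0.85), Dnajc3 (1.53), Dusp4 (1.39), Herpud1 (1.25), Hspa5 (2.1), Hyou1 (1.98), Manf (1.96), Myc (1.28), Sdf2l1 (3.19), Syvn1 (1.17) and Xbp1 (1.07), as log2 differences. It was lower in 1 mM for Acss2 (-2.08), Clu (-2.34), Dcn (-1.77), Igfbp5 (-2.09), Insig1 (-1.28), Postn (-1.26), Prelp (-2.04), Slit3 (-1.92), Tm7sf2 (-2.49) and Txnip (-2.34). The largest adjusted p of these was 0.00245 for Ddit3 (limma over 11931 genes), and medium and batch cannot be told apart.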

How the results depend on the processing

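The 7014 calls of WT against KO in 1 mM glucose became 6859 with the replicate number as a block, and of the genes named the block ended the calls of Mcm2 (limma adjusted p = 0.0765) and Scap (0.0681). That left 1 higher gene of SREBP control in place of 2 and none of replication in place of 1, and no other list count moved by over 1.5 times. Requiring an adjusted p and at least a 2-fold change left 1292. Over the other settings the count ran from 6114 with KO and WT libraries alone to 7596 with library weights, was 6901 under quantile normalization, and was 6404 to 7261 with 1 library left out. Higher calls were 3282 to 3771, lower calls 3122 to 3490, at least 2-fold changes 1174 to 1349 and Acly 5.172 to 5.267 with 1 library left out, and the calls in 10 mM were 4588 to 5140 and the differences between media 2686 to 3110. The share of calls that were higher stayed between 50.5% and 53.9%.

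Of the 240 genes named with a fold change, 217 kept their direction and side of the threshold under every setting run, and all 26 differences between media did. Under quantile normalization Cdc6 had 0.017, Col1a1 0.00, Mbtps1 -0.062 and Npc2 -0.037, and the medians of interferon-stimulated genes (0.059) and contractile genes (-0.014) reversed. Col1a1 is near the top rank, where that setting leaves little room for a difference. Values near 0 changed sign for 4 genes. Eif2ak1 had 0.020 with the length trend removed and -0.036 to 0.011 with 1 library left out, and Ern1 had 0.024 with the length trend removed, 0.031 with library weights and -0.168 to 0.045 with 1 library left out. Insig2 had 0.042 with library weights and -0.124 to 0.072 with 1 library left out, and Srebf1 ran from -0.084 to 0.0011. The cause was not tested. Read depth is unknown, so the precision of low values cannot be given.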
